A study of Mus musculus with 12 samples.

Results

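Transcripts of 9 genes of the JAK–STAT pathway were followed across LN T cells of 4 groups. The genes were the 4 feedback inhibitors Cish, Socs1, Socs2 and Socs3 and the 5 transcription factors Stat3, Stat4, Stat5a, Stat5b and Stat6. They were chosen by name, with earlier results of these data known, and 5 other STAT and SOCS genes are described below. The 9 are thus only a part of the STAT and SOCS genes of the count table. All 9 were found among its 49585 genes, and all 9 passed the filter on low counts that left 13118 genes for testing.

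The study asked how CD8+ T cells come to be helper or cytotoxic cells, and compared T cells of CD8Dual mice (called 8in4 in the sample names) with those of C57BL/6 (B6) mice. CD8Dual mice make CD8 from either co-receptor locus: their engineered Cd4 locus yields CD8α.1 with CD8β and no CD4, and their unmodified Cd8 locus yields CD8α.2. All groups came from male mice 6 to 10 weeks old, and T cells were sorted from LN as TCRβ+ (antibody H57) CD62L+ cells. The groups were B6 CD4 T cells and B6 CD8 T cells, and, from CD8Dual mice, CD8.1 T cells, whose co-receptor is encoded by the Cd4 locus, and CD8.2 T cells, whose co-receptor is encoded by the Cd8 locus. Each group had 3 samples, and RNA came from pooled sorted cells. The study's methods add a CD44- gate that the sample labels do not name, and neither source names a gate on CD25. Because the labels do not say that samples of a group came from separate animals, P values measure the spread between these samples only, which may be technical.

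Cytokine receptors without a kinase of their own carry JAK kinases, which phosphorylate STAT proteins upon cytokine binding, and phosphorylated STAT dimers enter the nucleus and activate their target genes. Cish and the Socs genes are themselves STAT targets, and their SH2-containing products damp the same receptors, so their transcripts are commonly read as a trace of cytokine signaling. In T cells, STAT5 acts downstream of IL-2, IL-7 and IL-15, STAT6 of IL-4, STAT4 of IL-12 and STAT3 of IL-6 and IL-10.

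STAT dimers bind sites of the form TTCNNNGAA, which reads the same on both strands. This form was searched for in windows of 300 bases, from 250 bases before to 50 bases after each gene start, in the RefSeq promoter table (GRCm38.p6), which held 11 windows for 8 of the 9 genes (all but Socs2). At least 1 match was present in 8.3% of all 32851 windows and at least 2 in 0.457%. Among the 8 genes, Cish held 2 matches and Socs3 held 1, and every stretch with a match is shown. Transcripts of both genes differed between lineages, as did those of Stat4 and Stat5b, whose windows held no match. Capitals mark the matches, and both stretches are written 5′ to 3′ on the strand of the gene.
Cish, chr9:107296654-107296683, plus strand: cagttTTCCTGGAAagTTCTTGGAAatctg
Socs3, chr11:117969501-117969530, minus strand: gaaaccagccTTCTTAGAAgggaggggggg
The matches of Cish began at offsets 0 and 11 from its RefSeq start, and GENCODE M21 placed them in the 5′ UTR of the coding transcript Cish-201. The match of Socs3 began at offset -154, within an intron of the non-coding transcript Socs3-202. Windows of Socs1, Stat3, Stat4, Stat5a, Stat5b and Stat6 held no such match, and none of the 11 windows held the form TTCNNNNGAA, which was present in 6.95% of all windows and cannot coincide with the first form at the same bases. A match is a run of letters only, and binding was not measured.

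Libraries held 18667474 to 37110502 counts, and 3 counts corresponded to 0.0875 to 0.167 CPM, the unit of counts scaled to a common library size. Each sample's mean correlation with its own group was 0.982 to 0.992, with the lowest value in CD8.1 replicate 1. The 7 T cell markers Cd3d, Cd3e, Cd3g, Cd28, Lck, Ccr7 and Lef1 summed to 3755 to 4287 CPM in all 12 samples. The 6 B cell markers summed to 72.4 to 88.0 CPM in B6 CD4, 61.7 to 76.0 in B6 CD8, 99.0 to 152 in CD8.1 and 71.1 to 124.8 CPM in CD8.2 samples. Of these, 4 were called higher and 1 lower in B6 CD4 than B6 CD8 cells, beside 11.4% and 11.7% of tested genes. In CD8.1 against CD8.2 cells 2 were called higher, beside 14.9%. Cd79a was 1.93-fold and 1.91-fold higher in these comparisons. The 6 myeloid markers summed to 6.14 to 12.3 CPM in B6 and 8.84 to 21.3 CPM in CD8Dual samples. The 5 NK and NKT cell markers, of which Ncr1 and Zbtb16 were too low to be tested, summed to 7.62 to 12.3 CPM in B6 CD8 samples and 0.773 to 4.22 CPM in the others. The part of these traces in the results was not tested.

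In B6 mice, 5 of the 9 genes differed between CD4 and CD8 T cells (edgeR's quasi-likelihood test, adjusted P under 0.05), against a background of 23.1% of all tested genes. Higher in CD4 T cells were 4 genes, Socs2, Cish, Socs3 and Stat5b, against 11.4% of tested genes, and lower was 1 gene, Stat4, against 11.7%. In CD8Dual mice the count was again 5 of 9, against a background of 28.7%, with the same 4 genes higher in CD8.1 than CD8.2 cells (14.9% of tested genes) and Stat4 again lower (13.8%). By role, 3 of the 4 feedback inhibitors and 2 of the 5 STAT genes were called in each strain. The median log2 difference of the 9 genes was 0.08 in B6 and 0.24 in CD8Dual mice, beside medians of -0.0011 and -0.00465 over all tested genes. In such bulk samples, a different share of a cell type and a different amount of RNA per cell cannot be told apart.

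**Figure D1:**
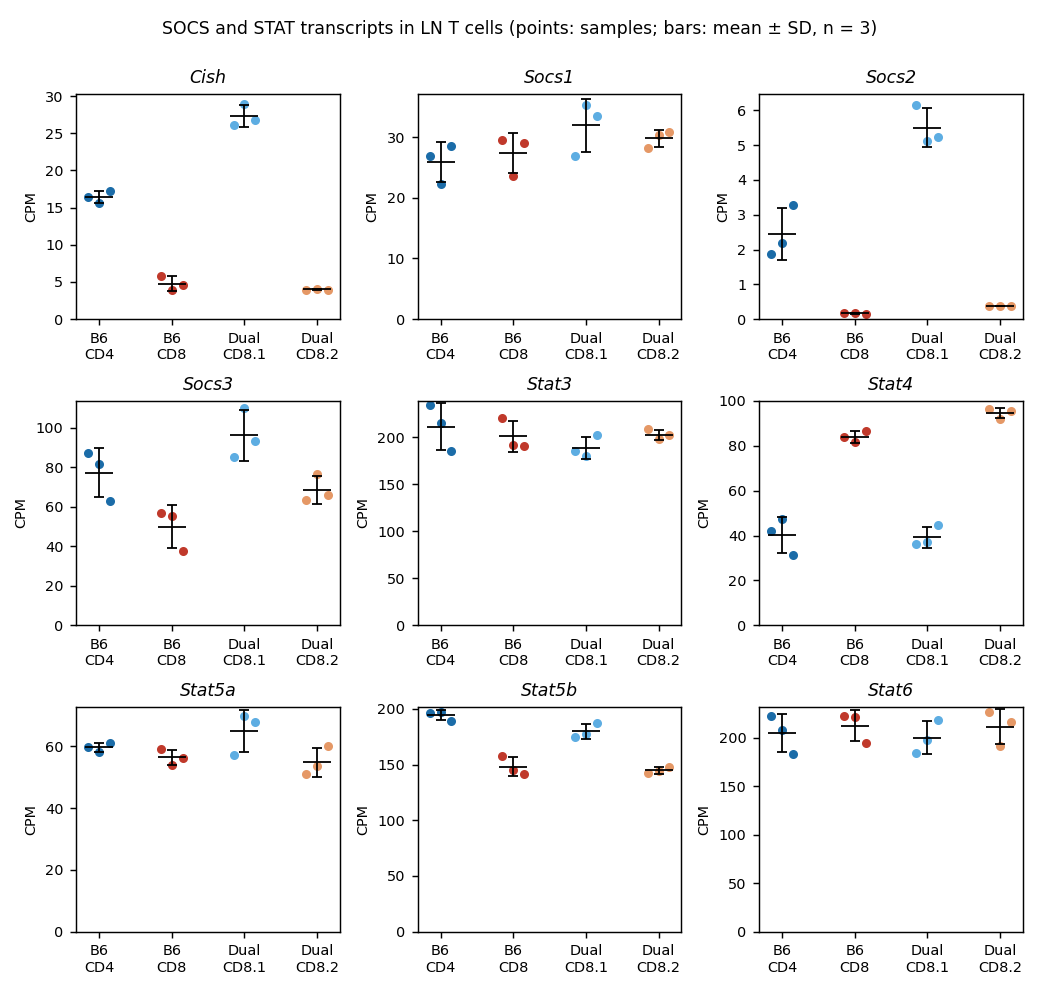
CPM (vertical axes, linear and starting at 0) of each of the 9 genes in the 4 groups, with a point for each of the 3 samples and a bar for mean ± SD. Cish and Socs2 are high in B6 CD4 and CD8.1 T cells and low in B6 CD8 and CD8.2 T cells, Stat4 has the opposite pattern, and Stat3 and Stat6 are nearly level.

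Among the feedback inhibitors, Cish, whose product binds the cytokine receptor and blocks STAT5 docking, separated the lineages in both strains. It is the gene with 2 site matches at its RefSeq start, shown above, and their part in its level was not tested. In B6 mice its level was 16.4, 15.6 and 17.3 CPM in the CD4 samples and 5.81, 3.85 and 4.57 CPM in the CD8 samples. In CD8Dual mice it was 26.1, 29.0 and 26.8 CPM in the CD8.1 samples and 3.96, 4.11 and 3.91 CPM in the CD8.2 samples. Every CD8.1 sample lay above every B6 CD4 sample, every B6 CD4 sample lay above all B6 CD8 and CD8.2 samples, and these last groups overlapped. The difference was 3.47-fold between B6 CD4 and CD8 T cells (log2 difference 1.79 ± 0.13 (SE), adjusted P = 5.22e-08) and 6.84-fold between CD8.1 and CD8.2 cells (log2 difference 2.78 ± 0.13, adjusted P = 4.74e-10).

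Cish lies at chr9:107296026-107302784 (GRCm38, plus strand). Its span overlaps Gm17040 by 1167 bases and the antisense gene Gm17041 by 1459 bases, both on the opposite strand, and since the use of strand in counting is not given in the sources used here, reads of these genes may not be told apart.

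Socs2, which damps growth hormone and cytokine receptor signaling, spanned the widest range of the 9 genes, 4.49 on the log2 scale between its highest and lowest group means. It was also the gene with the fewest reads. Its level was 1.87, 2.20 and 3.28 CPM for B6 CD4 samples and 0.164, 0.182 and 0.144 CPM for B6 CD8 samples, the latter from 3 to 5 reads per library. In CD8Dual mice it was 6.16, 5.13 and 5.22 CPM for CD8.1 samples and 0.383, 0.389 and 0.379 CPM for CD8.2 samples, the latter from 7 to 13 reads. The 4 groups did not overlap, but the B6 CD8 level was close to the limit of 3 counts, so that folds against it are imprecise. The lineage difference was 14.4-fold in B6 mice (95% interval 8.86 to 23.5, adjusted P = 2.91e-07) and 14.2-fold in CD8Dual mice (9.42 to 21.4, adjusted P = 5.13e-08).

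Socs3, the feedback inhibitor of gp130 receptors such as the IL-6 receptor, showed a smaller lineage difference. B6 CD4 samples held 87.1, 81.7 and 63.2 CPM and B6 CD8 samples 56.9, 55.3 and 37.4 CPM. CD8.1 samples held 85.1, 110 and 93.2 CPM and CD8.2 samples 63.4, 76.5 and 65.9 CPM. The lineages did not overlap within either strain, although the lowest B6 CD4 sample lay below the CD8.2 samples, and replicate 3 was the lowest of both B6 groups. Socs3 was 1.55-fold higher in B6 CD4 T cells (log2 difference 0.63 ± 0.15, adjusted P = 0.00683) and 1.40-fold higher in CD8.1 T cells (0.49 ± 0.15, adjusted P = 0.0253). The CD8Dual call was lost without CD8.1 replicate 2 (log2 difference 0.38, adjusted P = 0.12), without CD8.2 replicate 1 (0.43, adjusted P = 0.103) and without CD8.2 replicate 3 (0.45, adjusted P = 0.0885). Beside Socs3, 11 immediate early and heat shock genes, which respond to cell handling as well as to receptor signals, summed to 547 to 617 CPM for B6 CD4, 378 to 406 for B6 CD8, 515 to 744 for CD8.1 and 425 to 436 for CD8.2 samples. Their part in the Socs3 differences was not tested.

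Socs1, which inhibits JAK kinases directly, was not called in any comparison. Its mean level was 25.9 ± 3.31 (SD) CPM for B6 CD4, 27.4 ± 3.25 for B6 CD8, 31.9 ± 4.43 for CD8.1 and 29.8 ± 1.35 for CD8.2 T cells, and all neighbouring groups overlapped. Socs1 lies at chr16:10782240-10785536, Socs2 at chr10:95385362-95417180 and Socs3 at chr11:117966079-117970047, all on the minus strand and with no other annotated gene over their spans. The 95% interval of the log2 lineage difference of Socs1 was -0.34 to 0.18 in B6 and -0.16 to 0.36 in CD8Dual mice.

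Of the 5 STAT genes, Stat4 was the only one called lower in CD4 and CD8.1 T cells. B6 CD4 samples held 42.1, 47.4 and 31.3 CPM and B6 CD8 samples 83.7, 81.5 and 86.7 CPM. CD8.1 samples held 36.1, 37.0 and 44.6 CPM and CD8.2 samples 96.1, 91.7 and 95.4 CPM. The lineages were far apart in both strains, while B6 CD4 and CD8.1 samples overlapped. The level was 2.09-fold lower in B6 CD4 than B6 CD8 cells (log2 difference -1.06 ± 0.12, adjusted P = 8.33e-06) and 2.40-fold lower in CD8.1 than CD8.2 cells (-1.27 ± 0.12, adjusted P = 1.58e-06).

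Stat4 lies at chr1:51987148-52107189 (plus strand), and 29929 bases of its span are shared with the non-coding gene Gm28177 on the same strand. Beside it, 8 markers of memory and innate memory CD8+ T cells, led in B6 CD8 T cells by Ly6c2, Il2rb and Ccl5, summed to 140 to 174 CPM for B6 CD4, 1505 to 1868 for B6 CD8, 345 to 386 for CD8.1 and 989 to 1017 CPM for CD8.2 samples. Of the 8, 7 were called lower in B6 CD4 than B6 CD8 cells and 6 lower in CD8.1 than CD8.2 cells. Of all tested genes, 11.7% and 13.8% were called lower in the same comparisons. Fasl was higher in the helper lineage of both strains (4.19-fold in B6 and 8.74-fold in CD8Dual mice, adjusted P = 8.78e-06 and 4.99e-07), and Cd44 was 1.31-fold higher in CD8.1 T cells (adjusted P = 0.0211). The sum differed in the direction of Stat4 between lineages, but every B6 CD8 sample lay above the CD8.2 samples in this sum and below them in Stat4. Its part in the Stat4 difference was not tested.

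Stat5b, one of the paired factors that carry the IL-2 and IL-7 signal, was modestly higher in CD4 and CD8.1 T cells. It was at 196, 198 and 189 CPM for B6 CD4 samples against 158, 145 and 142 CPM for B6 CD8 samples. It was at 174, 178 and 188 CPM for CD8.1 samples against 142, 144 and 148 CPM for CD8.2 samples. The lineages did not overlap in either strain, and B6 CD8 and CD8.2 samples overlapped. The differences were 1.31-fold (log2 difference 0.39 ± 0.07, adjusted P = 0.000361) and 1.24-fold (0.31 ± 0.07, adjusted P = 0.00228).

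Stat5a, its close paralog and neighbour, was at 59.7 ± 1.46 (SD) CPM for B6 CD4, 56.4 ± 2.56 for B6 CD8, 65.0 ± 6.76 for CD8.1 and 54.9 ± 4.71 for CD8.2 T cells, with overlap between all neighbouring groups. The log2 lineage difference was 0.08 (95% interval -0.11 to 0.27) in B6 mice and 0.24 (0.05 to 0.43, adjusted P = 0.0527) in CD8Dual mice. The CD8Dual value passed the threshold without CD8.1 replicate 1 (0.31, adjusted P = 0.00641) and without CD8.2 replicate 3 (0.30, adjusted P = 0.0381). It also passed with DESeq2 size factors (adjusted P = 0.0449), total counts (0.0136), the DESeq2 Wald test (0.0312), a minimum mean of 1 CPM (0.0371) and a replicate block within each strain (0.0317). Stat5a (chr11:100859351-100885169, plus strand) and Stat5b (chr11:100780731-100850724, minus strand) lie 8626 bases apart, and 205 windows of the length of a read occur in transcripts of both genes, 2.62% of those of Stat5a and 3.7% of those of Stat5b. With the counts of both genes summed, the log2 lineage difference was 0.31 in B6 mice (adjusted P = 0.00261) and 0.30 in CD8Dual mice (adjusted P = 0.0039).

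Stat3 and Stat6 were not called in any comparison. Stat3 was at 211 ± 24.7, 201 ± 16.7, 189 ± 11.7 and 203 ± 5.35 CPM (mean ± SD) in T cells of the B6 CD4, the B6 CD8, the CD8.1 and the CD8.2 groups. Stat6 was at 205 ± 19.6, 213 ± 15.6, 200 ± 17.3 and 212 ± 18.1 CPM in the same order. Samples of all 4 groups overlapped for both genes. Group means of Stat6 spanned 0.09 and those of Stat3 0.16 on the log2 scale, the narrowest ranges of the 9 genes, and the intervals of their lineage differences lay between -0.29 and 0.26. Stat3 (chr11:100885098-100939540, minus strand) overlaps the end of Stat5a by 72 bases, and Stat6 (chr10:127642986-127660957, plus strand) overlaps Nab2 by 40 bases, in both cases on opposite strands.

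Per kilobase of the principal transcript, which allows levels to be set beside each other between genes, Stat6 was the most abundant of the 9 in every group, with group means of 53.1 to 56.3 CPM per kb. It was followed by Stat3 at 41.8 to 46.7 CPM per kb. Stat5b held 27.8 to 37.3 CPM per kb and Stat5a 14.1 to 16.7 CPM per kb. Socs3, at 19.5 to 37.7 CPM per kb, was the most abundant feedback inhibitor, and Socs2, at 0.0735 to 2.48 CPM per kb, the least abundant. The order of genes near each other depends on the transcript length chosen: over all annotated exons, Stat3 (19.8 to 22.2 CPM per kb) lay below Stat5b (26.1 to 35.1 CPM per kb).

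**Figure D2:**
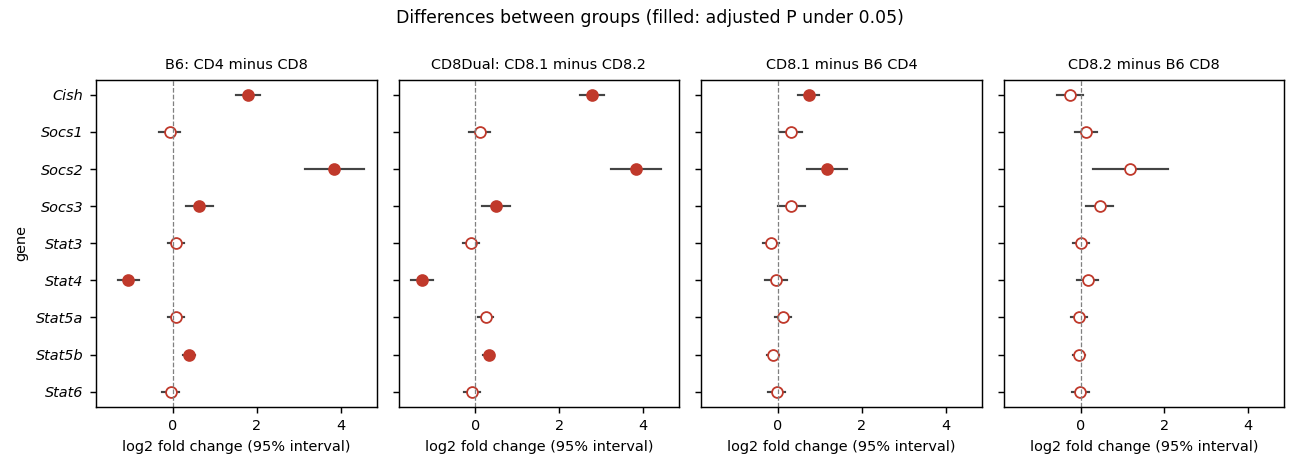
Log2 differences (points) with 95% intervals (lines) of the 9 genes in the 4 comparisons between groups, filled where the adjusted P was under 0.05. The first 2 panels share their 5 filled points, the third holds Cish and Socs2 only, and the last holds none.

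Between the strains, within the helper lineage, 2 of the 9 genes differed, both higher in CD8.1 than B6 CD4 cells, beside 12.8% of tested genes in both directions and 6.94% in the upward one. The median log2 difference of the 9 genes was 0.12. Cish was 1.66-fold higher in CD8.1 T cells (log2 difference 0.73 ± 0.12, adjusted P = 0.00145), with no overlap between samples. Socs2 was 2.24-fold higher (95% interval 1.61 to 3.12, adjusted P = 0.00422), also with no overlap. None of the 5 STAT genes was called, and their log2 differences lay between -0.16 (Stat3) and 0.12 (Stat5a). Values of Socs1 (0.30 ± 0.12, adjusted P = 0.115) and Socs3 (0.32 ± 0.15, adjusted P = 0.185) did not pass. Both passed with a replicate block within each strain (adjusted P = 0.0336 and 0.0121), Socs3 also with no filter on low counts (0.31, adjusted P = 0.0194) and Socs1 without CD8.1 replicate 1 (0.40, adjusted P = 0.0228). Without B6 CD4 replicate 3, Stat3 passed (-0.28, adjusted P = 0.0494).

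Within the cytotoxic lineage, edgeR over all 12 samples with no replicate block called 0 of the 9 genes between CD8.2 and B6 CD8 T cells, against a background of 7.94%, and their median log2 difference was 0.01. At an unadjusted P under 0.05 there were 2, Socs2 and Socs3. Socs2 was 2.28-fold higher in CD8.2 T cells (95% interval 1.23 to 4.24, adjusted P = 0.088), from the few reads given above. Socs3 was 1.37-fold higher (log2 difference 0.46 ± 0.15, adjusted P = 0.0828), and samples of the groups did not overlap. Other settings called 1 gene, Socs3, namely DESeq2 (adjusted P = 0.0403) and edgeR with a replicate block within each strain (0.00215) or shared by all groups (0.0436), with only the groups compared (0.0291) or with no filter on low counts (0.000146). limma-voom called 0. Cish had a log2 difference of -0.25 (95% interval -0.56 to 0.06), opposite in sign to its difference in the helper lineage. Both comparisons between strains use the samples of the lineage comparisons and are not independent of them.

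Whether the lineage difference itself changed with the strain was tested as an interaction, the CD8.1 minus CD8.2 difference less the B6 CD4 minus CD8 difference. Of the 9 genes, 1 was called, Cish, against 1.87% of tested genes in both directions and 1.58% in the upward one. Its lineage difference was 1.98-fold wider in CD8Dual mice (95% interval 1.5 to 2.6, log2 0.98 ± 0.19, adjusted P = 0.00962). For Socs2 the log2 interaction was -0.03 ± 0.49, with a wide interval of -1.06 to 1.01. For Socs3 it was -0.14 ± 0.22, for Stat4 -0.21 ± 0.17 and for Stat5b -0.08 ± 0.09, none of them called.

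Regulatory T cell markers moved with Cish and Socs2. The 10 markers, which include Foxp3, the lineage factor of regulatory T cells, and Il2ra, the high-affinity chain of the IL-2 receptor (CD25), summed to 265 to 384 CPM for B6 CD4, 91.1 to 95.7 for B6 CD8, 648 to 720 for CD8.1 and 85.8 to 88.6 CPM for CD8.2 samples. Of the 10, 9 were higher in B6 CD4 than B6 CD8 cells, 10 higher in CD8.1 than CD8.2 cells and 9 higher in CD8.1 than B6 CD4 cells, beside 11.4%, 14.9% and 6.94% of tested genes. Between CD8.2 and B6 CD8 cells 3 were called, 2 higher and 1 lower, beside 7.94%. Foxp3 itself was at 32.6 to 44.6 CPM for B6 CD4, 102 to 168 for CD8.1, 0.182 to 0.529 for B6 CD8 and 0.809 to 1.46 CPM for CD8.2 samples. From B6 CD4 to CD8.1 T cells, the mean of the marker sum was 2.14 times as high, that of Foxp3 3.65 times and that of Il2ra 2.84 times, beside 2.25 times for Socs2 and 1.66 times for Cish. The part of the marker differences in those of Cish and Socs2 was not tested.

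**Figure D3:**
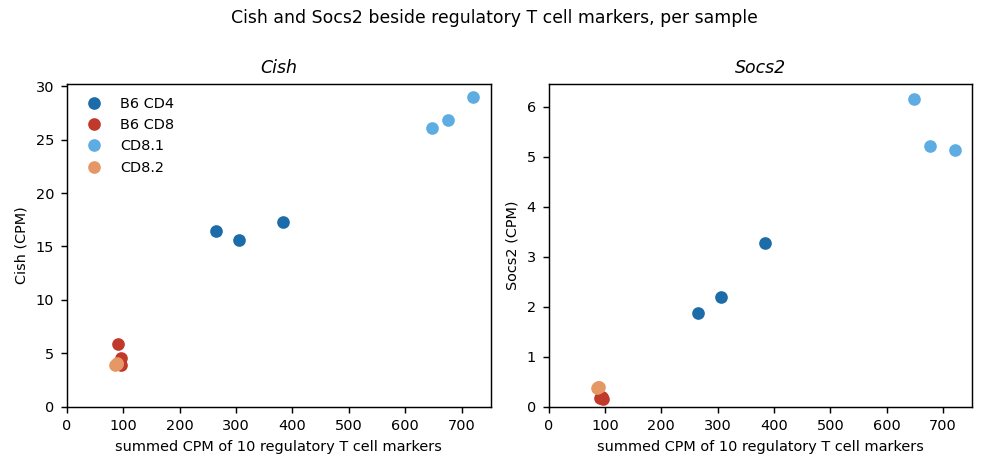
CPM of Cish (left) and Socs2 (right) in each sample against the summed CPM of the 10 regulatory T cell markers, with both axes linear and starting at 0. B6 CD8 and CD8.2 samples lie together at the lower left, the B6 CD4 samples between 265 and 384 CPM of markers, and the CD8.1 samples between 648 and 720 CPM and highest for both genes.

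The genes most like Socs2 over the 12 samples by Pearson's r of log2 CPM, among 11271 genes with a mean of at least 1 CPM, were Il2ra (0.993), Foxp3 (0.988) and Pdcd1 (0.988), which encodes the inhibitory receptor PD-1. Those most like Cish were Izumo1r (0.988), which encodes folate receptor 4, Tiam1 (0.986), a Rac exchange factor, and Mapk11 (0.983), a p38 kinase. Those most like Stat4 were Prf1 (0.988), which encodes perforin, Xrn2 (0.983), an RNA exonuclease, and Mthfd1l (0.977), a mitochondrial enzyme of folate metabolism. The 12 points fall into 4 groups, so that these values mostly restate the group means.

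Upstream of the STAT factors, 13 of the 20 receptor genes were called between B6 CD4 and CD8 T cells (5 higher, 8 lower) and 14 between CD8.1 and CD8.2 cells (7 higher, 7 lower), beside 23.1% and 28.7% of tested genes and with median log2 differences of -0.11 and -0.05. Il2ra was 30.5-fold higher in B6 CD4 (adjusted P = 4.71e-11) and 54.5-fold higher in CD8.1 T cells (adjusted P = 7.71e-12). It is also one of the regulatory T cell markers above, and Il2rb one of the memory markers. Il9r, a receptor for a helper cytokine, was at 0.773 to 1.49 CPM for B6 CD4 and 3.89 to 7.07 CPM for CD8.1 samples, a 5.49-fold difference (adjusted P = 0.000779). It was also 11-fold higher in CD8.2 than B6 CD8 cells (adjusted P = 0.00447), where B6 CD8 samples held at most 4 reads. Its interaction was not called (log2 -1.01, adjusted P = 0.621). Il12rb2, the chain of the IL-12 receptor that recruits STAT4, was at 0.182 to 0.259 CPM for B6 CD4 and 1.15 to 2.00 CPM for B6 CD8 samples, so that it was lower in the same group as Stat4 (log2 difference -2.84, adjusted P = 2.45e-05). In CD8Dual mice the log2 difference of Il12rb2 was -0.97 (adjusted P = 0.048). Il12rb2 rested on at most 6 reads per B6 CD4 library and at most 10 per CD8.1 library, so that both differences are imprecise.

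Il2rb, the signaling chain shared by IL-2 and IL-15, was at 95.2 ± 14.3 (SD) CPM for B6 CD4, 473 ± 19.6 for B6 CD8, 242 ± 17.4 for CD8.1 and 316 ± 14.8 CPM for CD8.2 T cells. It was 2.54-fold higher in CD8.1 than B6 CD4 cells (adjusted P = 8.88e-07) and lower in CD8.2 than B6 CD8 cells (log2 difference -0.58, adjusted P = 0.00153). Between strains, 8 receptor genes were called for CD8.1 against B6 CD4 cells (7 higher, 1 lower) and 3 for CD8.2 against B6 CD8 cells, beside 12.8% and 7.94% of tested genes. For the interaction, 2 of the 20 were called, beside 1.87%, namely Il2rb and Il12rb1, which were named after their values were seen.

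Counts in the lists of JAK kinases and other inhibitors were near the shares over all tested genes (23.1% in B6 and 28.7% in CD8Dual mice). Of the 4 JAK kinases, 1 was called in each lineage comparison, Jak1, the partner of most of these receptors. It was lower in B6 CD4 than B6 CD8 cells (log2 difference -0.29 ± 0.10, adjusted P = 0.042) and lower in CD8.1 than CD8.2 cells (-0.46 ± 0.10, adjusted P = 0.00201). Of 5 other STAT and SOCS genes, 2 were lower in B6 CD4 T cells and 1 in CD8.1 T cells. Socs5 was lower in both (log2 difference -0.60 in B6 and -0.30 in CD8Dual mice, adjusted P = 0.000207 and 0.0261), opposite to Cish, Socs2 and Socs3. Socs7 was lower in B6 CD4 T cells (-0.28, adjusted P = 0.0207). Of 10 other inhibitors of the pathway, 3 were called in B6 and 2 in CD8Dual mice. The phosphatase gene Ptpn6 (SHP-1) was lower in B6 CD4 T cells (-0.59, adjusted P = 0.00246), and Pias2, a repressor of STAT activity, was higher in CD4 and CD8.1 T cells (0.28 and 0.35, adjusted P = 0.0242 and 0.0061).

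Of 12 known STAT target genes outside the SOCS family, 10 were called in each strain, beside 23.1% and 28.7% of tested genes, but not in a single direction: 5 were higher and 5 lower in B6 CD4 T cells, and 6 higher and 4 lower in CD8.1 T cells. Their median log2 differences were 0.12 and 0.35. Pim1, a survival kinase induced by STAT5, was at 48.6 to 58.0 CPM for B6 CD4, 30.4 to 34.4 for B6 CD8, 61.8 to 79.5 for CD8.1 and 25.7 to 27.3 CPM for CD8.2 samples. Like Cish, it was higher in the helper lineage of both strains, 1.70-fold in B6 CD4 T cells (adjusted P = 4.29e-05), 2.73-fold in CD8.1 T cells (adjusted P = 4.66e-08), and was called for the interaction, as 1 of the 12 target genes (log2 0.69, adjusted P = 0.0192). Pim2, of the same kinase family, went the other way in both strains, at 58.1 to 68.1 CPM in B6 CD4 and 151 to 164 CPM in B6 CD8 samples (log2 difference -1.33, adjusted P = 9.07e-08), and with a log2 difference of -0.90 in CD8Dual mice (adjusted P = 8.14e-06). Il18r1, a STAT4 target, was lower in the same groups as Stat4 itself (-1.09 in both strains, adjusted P = 6.66e-05 and 7.17e-05). Bcl2, the survival factor downstream of IL-7, was lower in both CD8Dual groups than in their B6 counterparts (log2 difference -0.46 for CD8.1 and -0.75 for CD8.2 T cells, adjusted P = 0.0124 and 0.00065).

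**Figure D4:**
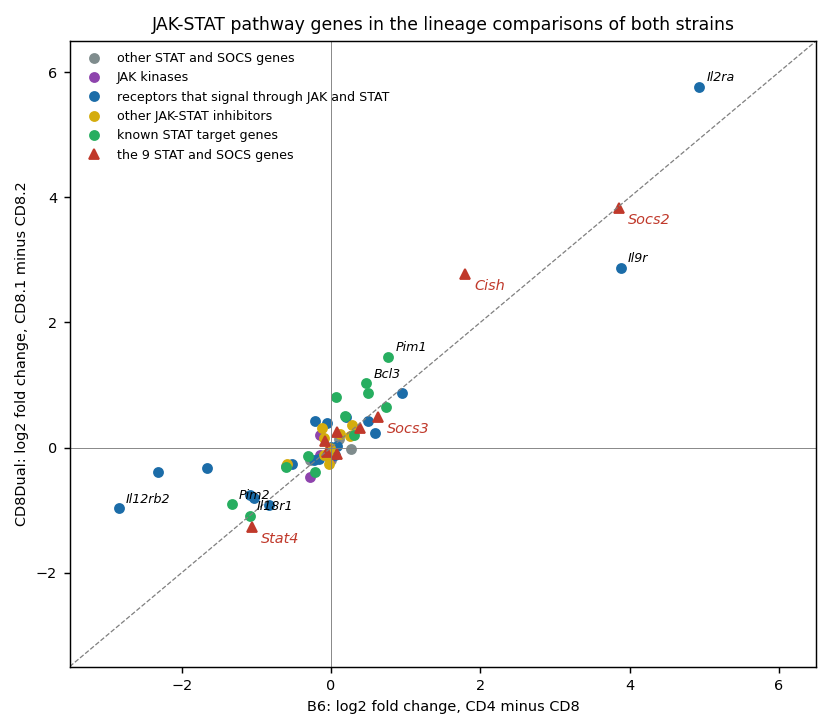
Log2 differences of pathway genes between B6 CD4 and CD8 T cells (horizontal axis) and between CD8.1 and CD8.2 cells (vertical axis), a point per gene, colored by list, with triangles for the 9 STAT and SOCS genes and a dashed line of equal difference. Cish and Il2ra lie above the line, Socs2 on it, and Stat4 at the lower left with Il18r1.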

How the data were processed

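RNA-seq of 12 samples was analysed, 3 in each of 4 groups, with groups and replicate numbers taken from the sample labels. The authors aligned read pairs to mm10 with STAR, and the deposited values are raw counts per gene from RSEM, as whole numbers and without normalization. Versions, annotation release and strand setting are not given in the sources used here. All columns of the table were mapped to samples (0 left out).

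Tests were run with edgeR 4.0.16 in R 4.3.3 (filterByExpr, TMM, glmQLFit and glmQLFTest, 1 model over all 12 samples), with Benjamini-Hochberg adjustment over the 13118 tested genes and a threshold of 0.05. The CPM values use TMM-scaled library sizes. Standard errors were obtained from the log2 fold change and the square root of F, and intervals are 95%. On simulated data with 200 changed genes, the fit recovered 79% of 2-fold changes between B6 CD4 and CD8 T cells and 78% between CD8.1 and CD8.2 cells (12877 genes). It also called 12 and 11 unchanged genes. Simulated samples were drawn independently, with no replicate effect.

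The genes and lists were chosen with earlier results of these data known. Named were the 9 genes, the 3 genes most like each of the 3 genes with the widest range, and from each pathway list and comparison between groups up to 3 called genes with the largest differences and no overlap between groups. Some genes of these lists are not reported here. Positions came from GENCODE M21 on GRCm38 and promoter windows from RefSeq (GRCm38.p6). The gene identifiers of 8 of the 9 genes carried the same version there, all but Socs1.

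Alternatives were DESeq2 1.42.0 (size factors and Wald test), limma 3.58.1 (voom), total counts, other filters, only the groups compared, replicate blocks, each sample left out, other call limits, and Stat5a and Stat5b summed. Replicates of a group differed by more than sampling noise (chi-square of 6.46 to 57.9 per gene). Deviations from the group mean were correlated between same-numbered samples, numbered in the labels. The values of r were 0.126, 0.138 and 0.257 for B6 CD4 with B6 CD8 samples. For CD8.1 with CD8.2 samples they were -0.00388, 0.0905 and 0.119. Same-numbered samples of different strains gave -0.221 to -0.00411. Whether same-numbered samples were paired was not tested, and the reported tests used no replicate block. Plots were made in Python 3.11.15 with matplotlib 3.10.9.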

Additional observations from a re-analysis of the deposited data

Results flagged for a closer look

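The lineage difference of Cish was wider in CD8Dual than in B6 mice, by 0.982 on the log2 scale (adjusted P = 0.00962, interaction term, edgeR's quasi-likelihood test). It was singled out because the difference between the strains was itself tested and passed the threshold, and over 20 alternatives its value stayed between 0.795 and 1.111 with adjusted P up to 0.0396. Of the 10 regulatory T cell markers, 5 (Capg, Gpr83, Ikzf2, Ikzf4 and Nrp1) were also called higher for the interaction, beside 1.58% of tested genes. Foxp3 (log2 -0.09 ± 0.54, adjusted P = 0.951) and Il2ra (0.84 ± 0.30, adjusted P = 0.244) were among those not called. The Foxp3 value is imprecise, since B6 CD8 samples held at most 11 reads of this gene. The part of the markers in the Cish interaction was not tested. With 3 samples per group, single samples were not tested for standing apart.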

How the results depend on the processing

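Of 274 settings of member results that were called, 271 kept direction and side of the threshold, and the other 3 are those of Socs3 given in the report. Over all alternatives Cish ranged from 1.655 to 1.971 in B6 and from 2.727 to 2.827 in CD8Dual mice, and Stat4 from -1.192 to -0.902 and from -1.378 to -1.219. With a fold above 2 added to the adjusted P, the count of called genes was 3 in B6 mice, 3 in CD8Dual mice, 1 for CD8.1 against B6 CD4 cells and 0 for the interaction, fewer by construction. With the study's limits, an unadjusted P under 0.05 and a fold above 5, it was 1, 2, 0 and 0. These limits drop the adjustment and add a fold limit together, and their parts were not separated. Shares of all tested genes under the limits with a fold were not obtained, so these counts have no background beside them. For CD8.2 against B6 CD8 cells the count was 1 in place of 0, in each case Socs3, with the DESeq2 Wald test, with no filter on low counts, with only the groups compared, and with a replicate block shared by all groups or within each strain (log2 difference 0.45 to 0.48), and the cause was not tested. A replicate block within each strain gave 5 called genes in B6 mice and 6 in CD8Dual mice (Stat5a added, adjusted P = 0.0317). For CD8.1 against B6 CD4 cells it gave 4 in place of 2 (Socs1 and Socs3 added, adjusted P = 0.0336 and 0.0121). The cause was not tested. The blocks changed no other call.

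Log2 differences that changed sign belonged to results that were not called. With a sample left out, Stat6 ranged from -0.128 to 0.024 in B6 mice, -0.131 to 0.021 for CD8.1 against B6 CD4, -0.081 to 0.060 for CD8.2 against B6 CD8 cells and -0.113 to 0.040 for the interaction. Stat3 ranged from -0.016 to 0.166 in B6 mice and -0.038 to 0.076 for CD8.2 against B6 CD8 cells, Socs1 from -0.177 to 0.021 in B6 mice, and Stat4 from -0.215 to 0.075 for CD8.1 against B6 CD4 cells. For CD8.2 against B6 CD8 cells, Stat5a ranged from -0.110 to 0.013 and Stat5b from -0.079 to 0.005. For the interaction, Socs2 ranged from -0.183 to 0.230 and Socs3 from -0.282 to 0.021. Other settings gave a Stat3 difference of -0.047 for CD8.2 against B6 CD8 cells with total counts, and a Socs2 interaction of 0.063 with limma-voom, 0.016 with a shared replicate block and 0.011 with a block within each strain. The summed Stat5 counts gave -0.053 for CD8.1 against B6 CD4 cells and -0.018 for the interaction, where Stat5a alone was positive. The cause of these changes was not tested. With 3 to 13 reads per library in B6 CD8 and CD8.2 samples, depth limits every statement on Socs2 in the cytotoxic lineage.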

Other observations

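Receptors that pair with STAT genes of level expression were named here after their values were seen. Il4ra, which signals through STAT6, was 1.41-fold higher in B6 CD4 than B6 CD8 cells (adjusted P = 0.000234, edgeR's quasi-likelihood test) and 1.35-fold higher in CD8.1 than CD8.2 cells (adjusted P = 0.000848), whereas Stat6 was not called. Il6ra encodes a chain of the IL-6 receptor, which signals through STAT3, and was lower in both CD8Dual groups than in their B6 counterparts. Its log2 difference was -0.97 for CD8.1 (adjusted P = 0.000123) and -0.61 for CD8.2 T cells (adjusted P = 0.00487), whereas Stat3 was not called. Il6st, which encodes gp130, was not called in these comparisons either (-0.105 and -0.111). Il7r, the IL-7 receptor chain, was not called in any of the 5 comparisons, with log2 differences from -0.18 to 0.05. Of the STAT targets, Gata3, the Th2 factor induced through STAT6, was 1.41-fold higher in B6 CD4 T cells (adjusted P = 0.00175) and 1.83-fold higher in CD8.1 T cells (adjusted P = 1.16e-05), and Osm, a cytokine gene induced by STAT5, was 1.67-fold and 1.56-fold higher (adjusted P = 0.000292 and 0.000955).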
